A study of Homo sapiens with 28 samples.

Results

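GDM1 grown without inhibitor was compared with 6 other acute myeloid leukaemia (AML) cell lines on Affymetrix Human Genome U133 Plus 2.0 arrays. The 2 arrays of GDM1 in 0.1% DMSO were set against the 12 DMSO arrays of MOLM13, SKM1, THP1, SKNO1, NOMO1 and SHI1, averaged by line, so that 14 of the 28 arrays of the series entered the comparison. All cells, GDM1 and the others alike, received 0.1% DMSO, the vehicle, for 96 hours (4 days). The other 14 arrays held the same 7 lines after 96 hours in 1 µM GSK3484862, which blocks DNMT1, the enzyme that copies DNA methylation at replication, and served to see whether a difference recurred in cultures not used to find it. The study's design describes the 2 arrays of each group as biological duplicates, and each line is a single established line from a repository. A gene was described as outside the range when both GDM1 arrays lay above the highest, or below the lowest, of the 12 other DMSO arrays, and 3168 of 11676 genes met this rule.

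As background, GDM1 is known for a translocation between chromosomes 6 and 7 that places the homeobox gene MNX1, normally silent in blood cells, beside the gene of the progenitor transcription factor MYB. MOLM13, THP1, NOMO1 and SHI1 carry fusions of KMT2A, a histone methyltransferase gene, and SKNO1 carries the RUNX1-RUNX1T1 fusion. In normal marrow, stem and progenitor cells lose genes such as ERG and TAL1 as they mature, promyelocytes make the serine proteases of the primary granules under the control of factors such as GFI1 and CEBPE, and monocytes make CD14, S100A8 and the Toll-like receptors. None of these rearrangements was measured here.

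The deposited values were log2 probe set signals with a shared floor of 2.13, where values have no order, and array medians between 8.33 and 8.51. The number of arrays limits the precision. Across genes, which are not independent replicates, the GDM1 duplicates correlated at r = 0.997, within the 0.991 to 0.998 of the other lines. The GDM1 mean profile correlated best with SKNO1 (r = 0.823) and least with THP1 (r = 0.764). By the same rule for each line, 3168 genes lay outside the range in GDM1, 2731 in SKNO1, 2288 in NOMO1, 2279 in THP1, 1663 in MOLM13, 1601 in SHI1 and 1580 in SKM1. Differences are log2 GDM1 minus the mean of the 6 other line means, with the standard error (SE) of a limma fit of the 7 groups. That error is the spread between duplicates, so its p-values concern these 7 lines and not AML in general.

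By the limma test 8541 of 11676 genes (73.2%) passed a Benjamini-Hochberg adjusted p of 0.05, 4011 higher (34.4%) and 4530 lower (38.8%) in GDM1. Against each of the 6 other lines separately, 1115 genes (9.55%) were called higher every time and 1129 (9.67%) lower every time. Both GDM1 arrays lay above all 12 others for 1634 genes (13.99%) and below them for 1534 genes (13.14%). These shares, and the 34.4% and 38.8% called, are the background for the list counts below. The gap was at least 1 on the log2 scale for 378 genes above and 383 below, and at least 5 for 23 above and 68 below. With the 7 line means as units, where variation from line to line gives the error, 97 genes (0.831%) were called higher and 123 (1.05%) lower, and 1244 had an unadjusted p under 0.05. The median difference over all genes was -0.05. Every gene given below as above or below the range also passed the limma test, with adjusted p of 0.0199 at most, and the genes were named because they lay outside the range, so these p-values only describe them. Of the 148 called genes whose DMSO values are given, 100 lost their call with lines as units.

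MNX1, a homeodomain factor of motor neuron and pancreas development, stood far above the other lines. The GDM1 arrays read 9.95 and 9.98, against a lowest of 2.79, a median of 2.99 and a highest of 4.01 in the 12 others. GDM1 was the only line with a level above 4.01, and the difference was 6.94 ± 0.12 (SE, limma adjusted p = 1.61e-11), a call kept with lines as units (adjusted p = 7.39e-04). In the GSK3484862 arrays GDM1 read 9.70 and 9.48, still above the other lines' highest of 3.29. MYB itself was not higher. Its GDM1 arrays both read 13.27, just under the 13.33 to 13.85 of the others (difference -0.29 ± 0.07), on 1 of its 2 probe sets, and the mean of both probe sets turned the sign (0.02).

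Of 14 measured genes of the MNX1 and MYB regions, 3 lay above the range, 3 below it and 8 inside, against 13.99% and 13.14% of all genes. Beside MNX1, the limb-region gene LMBR1 read 11.09 and 11.10 in GDM1, against 9.23 to 10.01 in the other arrays, a difference of 1.53 ± 0.11. MAP7, a microtubule-associated protein gene of the MYB region, differed by 3.38 ± 0.20, with SKNO1 the next line. AHI1, a ciliary gene next to MYB, was lower by -1.80 ± 0.08, on 2 of its 4 probe sets below the range, and MTFR2, a mitochondrial fission regulator, by -1.06 ± 0.07. NOM1, the neighbour of MNX1, read 10.48 and 10.59 in GDM1 and lay inside the range of the others (9.42 to 11.49), with a difference of 0.04 ± 0.08.

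**Figure D1:**
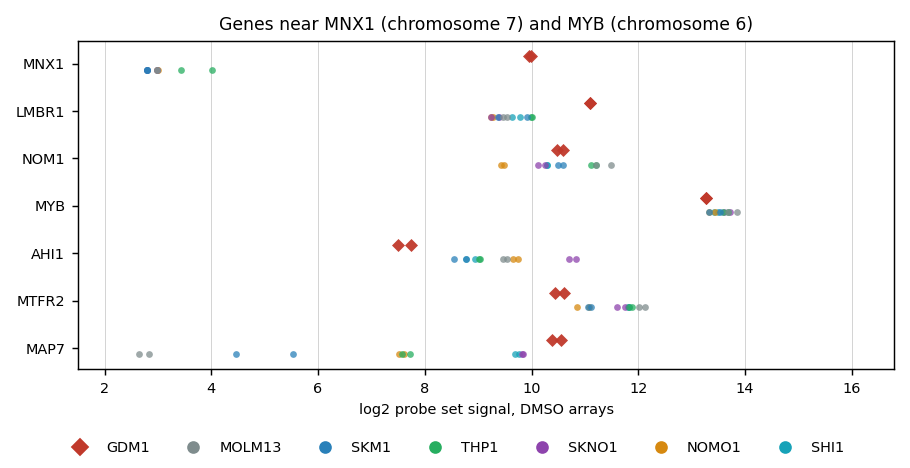
Log2 probe set signal (x axis) in the DMSO arrays for 7 genes of the MNX1 and MYB regions, with the 2 GDM1 arrays as diamonds and the 12 arrays of the other lines as circles coloured by line. MNX1 in GDM1 sits near 9.95 while every other array lies at or below 4.01, and NOM1 overlaps the other lines.

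Stem and progenitor genes had the highest share of members above the range among the 39 lists. The lists and their members were chosen with earlier results of these data known, so this ranking is only a description. Of 28 measured members 15 were above and 2 below, against 13.99% and 13.14% of all genes. The calls were 23 higher and 5 lower, where 34.4% and 38.8% of all genes were called. The median difference was 2.20, against -0.05 over all genes. FAM30A, a long non-coding RNA gene used in stemness signatures, read 12.88 and 12.82 in GDM1, against 2.13, 2.13 and 7.89 (lowest, median and highest) in the others. CD200, an immune checkpoint ligand of leukaemia stem cells, read 12.52 and 12.58, against 2.13, 2.13 and 6.88. Most other arrays lay at the floor for both genes, and the exceptions were SHI1 for FAM30A and SKNO1 for CD200. ANGPT1, the ligand that keeps stem cells quiescent through TIE2, differed by 9.31 ± 0.09, TAL1, the stem cell leukaemia factor, by 7.92 ± 0.47, and ERG, an ETS factor of stem cells, by 7.64 ± 0.10. GATA2 read 11.50 and 11.48, above the highest other array at 11.01, which was from SKNO1. KIT, the stem cell factor receptor, was called higher (4.75 ± 0.20) but stayed inside the range because SKNO1 reached 13.17, and MEIS1, a HOX cofactor (4.21 ± 0.13), did so because SHI1 reached 10.87. SOCS2, a feedback inhibitor of cytokine signalling, was the largest exception at -5.40 ± 0.19, on 1 of its 2 probe sets below the range. FLT3, a growth factor receptor often mutated in AML, read 2.85 and 2.89 in GDM1, near the 2.73 of the lowest SHI1 array and far from MOLM13 at the top (12.35).

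Among 15 measured megakaryocyte and platelet genes, 4 were above the range and 2 below, against 13.99% and 13.14% of all genes. In this list 8 were called higher and 6 lower, where 34.4% and 38.8% of all genes were. MMRN1, a platelet alpha-granule protein also seen in leukaemia stem cells, gave the largest positive difference, with 13.87 and 14.07 in GDM1, against 2.13, 2.13 and 10.84 in the others, where SHI1 was the only line off the floor. The difference was 10.40 ± 0.06 (adjusted p = 2.34e-14) but did not pass with lines as units (adjusted p = 0.283). ITGA2B, the platelet integrin CD41, read 13.29 and 13.17, against 3.70, 3.84 and 6.45. It passed both tests, with 8.96 ± 0.11 (adjusted p = 1.82e-12) and with lines as units (adjusted p = 0.00646). The tetraspanin gene CD9 differed by 5.85 ± 0.34. PLEK, a platelet kinase substrate, was lower by -1.24 ± 0.09 and ZFPM1, the GATA cofactor FOG1, by -1.73 ± 0.16. The megakaryocyte list had a mean level per array of 8.00 and 8.06 in GDM1 and of 5.41 to 8.15 in the others, so the list as a whole overlapped. In bulk RNA of a line, a larger share of expressing cells and more RNA per cell cannot be told apart.

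The other genes with the largest positive differences had varied roles. TMEM163, a zinc transporter gene, read 11.28 and 11.24 in GDM1, against a highest other array of 2.56, and MYCN, the MYC family oncogene, read 11.40 and 11.45, against 3.05 at most. EFHC2, an EF-hand protein gene on the X chromosome, read 11.98 and 12.13, against 3.50 at most, and STAB1, a scavenger receptor gene, read 10.51 and 10.27 while all 12 others were at the floor. These 4 genes and FXYD6 (8.51 ± 0.17), a sodium pump regulator, were named for their wide gaps. The other arrays were at or near the floor for most of them, so their order by gap or difference is not exact, and likewise for genes with GDM1 near the floor. The matrix crosslinking enzyme gene LOX differed by 9.70 ± 0.32, the soluble guanylate cyclase subunit GUCY1B1 by 9.62 ± 0.28 and MPPED2, a phosphodiesterase gene, by 9.07 ± 0.05. CYTL1, a cytokine first found in CD34-positive cells, differed by 9.64 ± 0.06, although SKNO1 reached 13.32, close to the GDM1 arrays at 13.56 and 13.67. TCEAL9 (9.54 ± 0.60) and BEX4 (9.00 ± 0.20), related X-linked genes, and GJA1, the gap junction protein connexin 43 (8.93 ± 0.18), were above the range with other lines not far off, THP1 reaching 10.88 for TCEAL9 and 7.67 for BEX4, and SKM1 12.11 for GJA1. Of the 15 genes with the largest positive differences all 15 were above the range in the GSK3484862 arrays too, and 7 passed with lines as units.

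**Figure D2:**
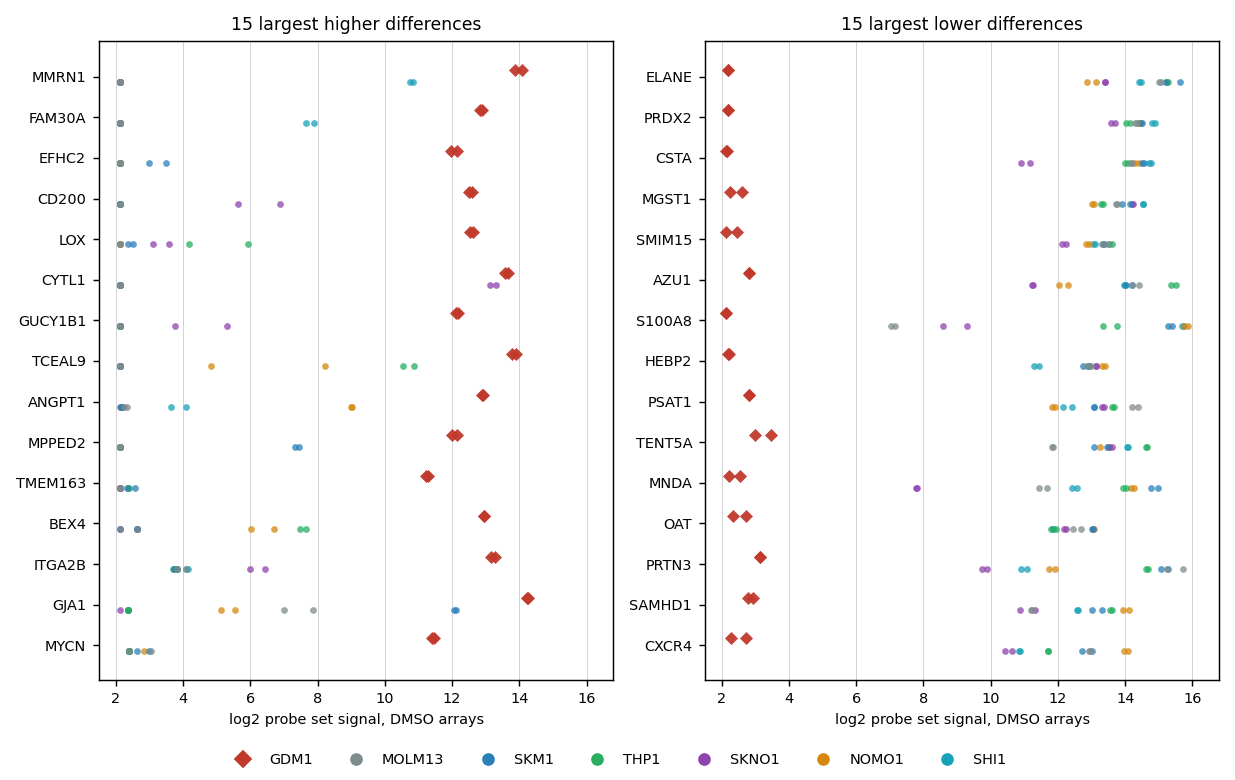
Log2 probe set signal (x axis) in the 14 DMSO arrays for the 15 genes with the largest positive (left) and the 15 with the largest negative differences (right), with GDM1 as diamonds and the other lines as circles coloured by line. For CYTL1 a single other line comes close to GDM1, and for MMRN1 a single other line lies off the floor. For PRDX2 and MGST1 all 12 other arrays lie above 13.

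Eosinophil, basophil and mast cell genes went both ways. Of 23 measured genes 6 were above the range and 3 below, against 13.99% and 13.14% of all genes. Of the 23, 9 were called higher, 7 lower and 7 neither, and the median difference was 0.02. HPGDS, the haematopoietic prostaglandin D synthase, read 10.23 and 9.99 in GDM1, against 2.13, 2.14 and 3.83 in the others, a difference of 7.77 ± 0.19. HPGD, which inactivates prostaglandins, differed by 8.81 ± 0.09 and the mast cell carboxypeptidase CPA3 by 6.57 ± 0.17. The mast cell tryptase genes TPSB2 (0.02) and TPSAB1 (0.59), near-identical neighbours picked after their values were seen, lay inside the range and did not pass. The eosinophil granule genes of the same list lay at the other end. PRG2, the eosinophil major basic protein, read 2.49 and 2.13, against 3.43, 13.61 and 14.72 (-9.64 ± 0.37), and RNASE2, the eosinophil-derived neurotoxin, differed by -6.91 ± 0.18.

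Several lymphoid genes were high in GDM1. Of 14 measured T and NK cell genes, 5 were above the range and 1 below, against 13.99% and 13.14% of all genes. In this list 5 were called higher and 6 lower, near the 34.4% and 38.8% of all genes. CD3D, a T cell receptor subunit, read 14.65 and 14.54 in GDM1, against 3.57, 5.87 and 9.18 in the others. The cytotoxic granule pore protein gene PRF1 differed by 6.37 ± 0.11, the cathepsin CTSW by 6.17 ± 0.09, the SLAM adaptor SH2D1A by 6.92 ± 0.06 and IL2RG, the common gamma chain, by 5.06 ± 0.19. CST7, a cystatin of cytotoxic and myeloid cells, went the other way (-8.05 ± 0.33). The list averaged 7.09 and 7.13 in the GDM1 arrays and 4.55 to 7.02 in the others, and LEF1 and KLRF1 were at the floor in both GDM1 arrays. These 14 genes were the measured ones of a list of 51, the part of these cells in the result was not tested, and other T cell receptor genes were not analysed here.

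MHC class II genes, which present extracellular antigen, were higher together. Of 18 measured genes 8 were above the range and 0 below, against 13.99% and 13.14% of all genes. The calls were 13 higher and 2 lower, where 34.4% and 38.8% of all genes were called. The median difference was 2.79. HLA-DPA1 read 13.07 and 13.19 in GDM1, against 2.49, 3.20 and 11.41 in the others, and HLA-DPB1 12.86 and 13.09, against 3.56, 4.69 and 12.12. HLA-DMA, the peptide loading chaperone, differed by 6.40 ± 0.38, HLA-DRB4 by 6.08 ± 0.25 and HLA-DRB1 by 4.31 ± 0.25. Probe sets of the DRB genes share sequence, so their separate levels are uncertain. With lines as units 0 of the 18 passed in either direction, and in the GSK3484862 arrays 4 of the 8 were still above the range.

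Interferon-stimulated genes were higher on balance, with a large exception. Of 68 measured genes 19 were above the range and 2 below, against 13.99% and 13.14% of all genes. In this list 41 were called higher and 17 lower, with a median of 0.78. OAS1, an antiviral oligoadenylate synthetase, read 8.34 and 8.51 in GDM1, against 2.49, 2.69 and 5.20 in the others. IFI44 differed by 6.19 ± 0.34, the DNA sensor IFI16 by 3.78 ± 0.28 and TRIM22, an antiviral ubiquitin ligase, by 3.78 ± 0.22. The exception was SAMHD1, a dNTP hydrolase that restricts viruses, which read 2.77 and 2.94 in GDM1 and between 10.87 and 14.12 in the other lines (-9.75 ± 0.11, below the range on 5 of 6 probe sets).

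Of 36 measured RAS-MAPK feedback genes 11 were above the range and 2 below, against 13.99% and 13.14% of all genes. In this list 18 were called higher and 13 lower, where 34.4% and 38.8% of all genes were. CCND1, cyclin D1, read 10.47 and 10.67 in GDM1, against 2.13, 2.93 and 7.20 in the others, and the RAS exchange factor RASGRP3 differed by 6.67 ± 0.15. SPRY2, a feedback inhibitor of receptor tyrosine kinases, read 2.15 and 2.23, against 8.26 to 10.75 in the others, and was the only one of the 36 to keep its call with lines as units (adjusted p = 0.00715). Of 25 JAK-STAT genes 5 were above and 4 below, near the 13.99% and 13.14% of all genes, with 14 called higher and 7 lower. The genes given next were all higher and do not stand for the list. JAK3 differed by 6.28 ± 0.11, STAT5A by 2.65 ± 0.12 and JAK1 by 1.90 ± 0.07. IL10RA, the interleukin 10 receptor, read 13.26 and 13.25 in GDM1, against 7.93 at most in the others.

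The p53 target list had no member below the range. Of 37 measured genes 18 were above, against 13.99% of all genes. The calls were 30 higher and 4 lower, where 34.4% and 38.8% of all genes were called. The median difference was 0.84. The death receptor genes TNFRSF10B and FAS differed by 3.03 ± 0.07 and 2.88 ± 0.10, the oxidoreductase TP53I3 by 3.85 ± 0.21 and the lipase CEL by 5.75 ± 0.10. The mean level of the list was 10.13 and 10.04 in the GDM1 arrays, above the 8.41 to 9.55 of the other 12, and 16 of the 18 genes were also above the range in the GSK3484862 arrays.

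Granulocyte genes were mostly lower. Of 39 measured neutrophil granule and chemotaxis genes, 17 were below the range and 2 above, against 13.14% and 13.99% of all genes. The calls were 34 lower and 5 higher, where 38.8% and 34.4% of all genes were called, and the median was -2.90. ELANE, neutrophil elastase, read 2.20 in both GDM1 arrays, against 12.87, 14.73 and 15.62 in the others, a difference of -12.22 ± 0.10 (adjusted p = 9.57e-14) that kept its call with lines as units (adjusted p = 0.00197). The neighbouring protease genes AZU1 and PRTN3 differed by -10.72 ± 0.08 and -9.85 ± 0.11, and MS4A3, a marker of granulocyte-monocyte progenitors, by -9.36 ± 0.26. GFI1, the repressor that directs granulocyte fate, read 5.80 and 5.81 in GDM1, against 11.17, 11.94 and 12.56 (-6.18 ± 0.11). MPO, myeloperoxidase, read 7.29 and 7.91 and stayed inside the range because THP1 read 6.84 and 7.03. The list's mean level was 6.49 and 6.58 in GDM1 and 8.07 to 10.89 in the other arrays, which did not overlap.

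Monocyte genes were lower on balance and with more overlap. Of 53 measured members 10 were below the range and 5, AIF1 among them, above it, against 13.14% and 13.99% of all genes. The list had 34 called lower and 9 higher, where 38.8% and 34.4% of all genes were, and a median of -1.53. CSTA, the cysteine protease inhibitor cystatin A, read 2.17 and 2.13 in GDM1, against 10.89, 14.25 and 14.77. MNDA, a myeloid nuclear antigen that is not in this list, read 2.22 and 2.56, against 7.79, 13.25 and 14.98. S100A8, a subunit of calprotectin, was at 2.13 in both GDM1 arrays and at 7.04 to 15.87 in the others, on 1 of its 2 probe sets below the range. TLR2, a sensor of bacterial lipoproteins, differed by -7.39 ± 0.10 and SERPINA1, antitrypsin, by -5.84 ± 0.19. KLF4, a monocyte factor, read 2.34 in both GDM1 arrays, against 2.64, 8.63 and 10.26, on 1 of its 2 probe sets below the range. CD14, the lipopolysaccharide coreceptor, was at the floor in GDM1, but MOLM13, SKM1 and SKNO1 were there as well. SPI1, which encodes the myeloid master regulator PU.1, differed by -0.84 ± 0.08, with 8.92 and 8.85 in GDM1, against 9.37 to 10.20. The monocyte list averaged 5.45 and 5.52 in GDM1, within the 5.39 to 9.35 of the other arrays. Of the 56 measured myeloid transcription factor genes 17 were below the range and 8 above, against 13.14% and 13.99% of all genes. TFEC, a macrophage factor, differed by -6.89 ± 0.16.

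The leukotriene genes ALOX5, 5-lipoxygenase, and ALOX5AP, its activating protein, differed by -7.46 ± 0.14 and -8.65 ± 0.12. These genes do not stand for their pathway. Of 27 measured leukotriene and prostaglandin synthesis genes 5 were above the range and 3 below, against 13.99% and 13.14% of all genes. The calls were 10 higher and 13 lower, where 34.4% and 38.8% of all genes were called, and the median was -0.16. CXCL8, interleukin 8, read 2.13 and 2.27 in GDM1, against 5.86 to 12.64, and the TNF family genes TNFSF13B and TNFSF14 differed by -7.85 ± 0.09 and -7.18 ± 0.10. TNFSF4, the OX40 ligand, was instead higher by 8.66 ± 0.28. Of 39 measured cytokine and chemokine genes 8 were above the range and 8 below, where 13.99% and 13.14% of all genes were, and 13 were called higher and 22 lower. CXCR4, the homing receptor for marrow CXCL12, read 2.27 and 2.71, against 10.42, 12.22 and 14.07 (-9.66 ± 0.11). The calcium-binding S100 genes S100A6 and S100A10 differed by -8.48 ± 0.08 and -7.40 ± 0.16, each on 1 of its 2 probe sets below the range. The junction genes JAM3 and ESAM lay above the range, with differences of 8.63 ± 0.10 and 8.01 ± 0.21 from the mean of the other lines. Adhesion genes as a whole went both ways. Among 19 measured epithelial and adhesion genes 3 were above the range and 3 below, with 4 called higher and 13 lower. Among 50 integrin, selectin and homing genes 14 were above and 4 below, with 25 called higher and 16 lower.

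The other genes with large negative differences had varied roles. PRDX2, a peroxide-reducing enzyme, read 2.17 in both GDM1 arrays, against 13.59, 14.37 and 14.90, a difference of -12.13 ± 0.06 (adjusted p = 9.4e-15). It was below the range on 2 of its 4 probe sets, with the same sign on all 4. MGST1, a microsomal glutathione transferase, read 2.26 and 2.60, against 13.01, 13.84 and 14.53, on all 4 probe sets. The serine synthesis enzymes PSAT1 and PHGDH read 2.80 in both arrays and 3.19 in both arrays, against lowest other arrays of 11.83 and 8.51. Ornithine aminotransferase OAT (-9.89 ± 0.09), the haem-binding protein HEBP2 (-10.56 ± 0.07), the nucleotidyltransferase TENT5A (-10.24 ± 0.13) and the small membrane protein SMIM15 (-10.79 ± 0.08) were also among the 15 largest. EGLN1, the oxygen-sensing prolyl hydroxylase, read 4.49 in both arrays, against 11.09 to 12.93, on all 4 probe sets. UBE2C, a mitotic ubiquitin-conjugating enzyme, differed by -7.36 ± 0.30 and does not stand for mitotic genes. Of 66 measured G2 and mitosis genes 5 were above the range and 7 below, against 13.99% and 13.14% of all genes. The calls were 14 higher and 19 lower, 33 were not called, and the median was -0.09. In all, 18 genes were at the floor in both GDM1 arrays and above it in all 12 others, among them DNAJC15, a mitochondrial cochaperone (others 10.41 to 13.02), IMPACT, a translation regulator (10.45 to 11.40), DYNLT3 (8.96 to 11.37), INAVA (7.73 to 11.62), TMEM185B (9.05 to 10.81), PTGFRN (7.83 to 10.06) and the homeobox gene MEIS2 (5.52 to 11.55). Of the 15 genes with the largest negative differences 12 passed with lines as units and 14 were again below the range in the GSK3484862 arrays.

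The serine enzymes belong to the unfolded protein and ATF4 response list. Here 14 of 40 measured genes were below the range and 2 above, against 13.14% and 13.99% of all genes. The calls were 29 lower and 5 higher, where 38.8% and 34.4% of all genes were called, and the median was -0.88. TRIB3, a pseudokinase induced by ATF4, read 2.40 and 2.88 in GDM1, against 9.93 to 11.79, asparagine synthetase ASNS differed by -2.35 ± 0.07 and DDIT4, an mTOR inhibitor, by -5.29 ± 0.39. The list's mean level was 8.85 and 8.73 in the GDM1 arrays and 9.83 to 10.79 in the others. Of 49 MYC target and ribosome biogenesis genes 12 were below and 1 above, against 13.14% and 13.99% of all genes. The examples UTP4 (-1.65 ± 0.07) and NIP7 (-2.06 ± 0.12), both factors of ribosome assembly, lie on chromosome 16.

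**Figure D3:**
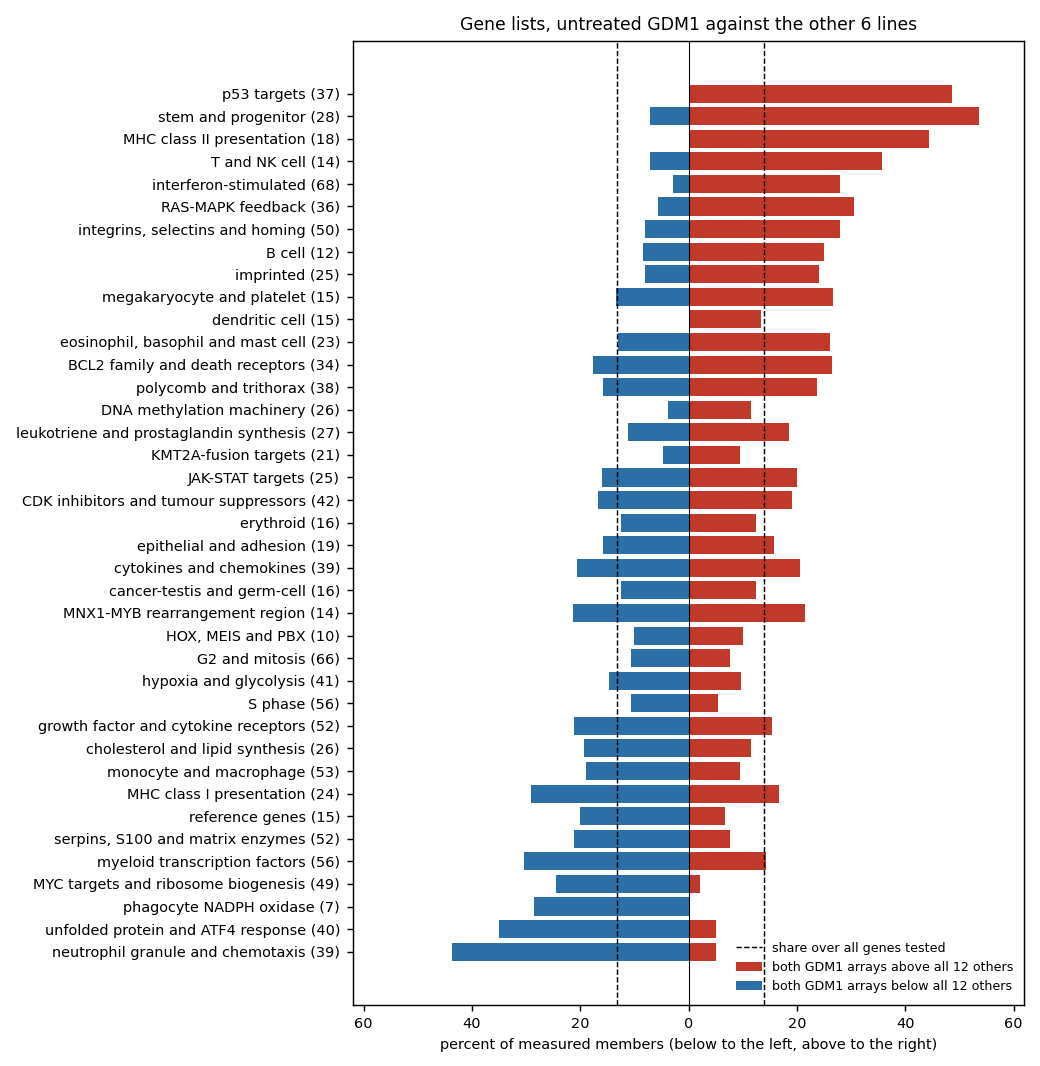
Percent of the measured members of each list (number in brackets) with both GDM1 DMSO arrays above (red, right) or below (blue, left) all 12 other DMSO arrays, with dashed lines at the 13.99% and 13.14% of all genes. Stem and progenitor, p53 target and MHC class II genes reach furthest to the right, and neutrophil and ATF4 response genes furthest to the left.

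Since the series tests a DNMT1 inhibitor, the methylation genes were read at baseline. DNMT3B, a de novo methyltransferase, read 13.12 and 13.05 in GDM1, against 6.66, 8.46 and 9.16 in the others (4.97 ± 0.08, adjusted p = 1.22e-11), but missed the threshold with lines as units (adjusted p = 0.0579). DNMT1 did not pass (-0.07 ± 0.06, adjusted p = 0.343), with GDM1 at 13.21 and 13.23 inside the 12.86 to 13.84 of the others. UHRF1, which guides DNMT1 to new DNA, was inside the range as well (0.30 ± 0.07). DNMT3A was lower by -0.33 ± 0.10 and inside the range, but the mean of its 2 probe sets had the other sign (0.33). Of 26 measured genes of this machinery 3 were above the range, namely DNMT3B, ZBTB4 (1.09 ± 0.10) and GADD45A (0.97 ± 0.08), and GADD45B was below it (-2.80 ± 0.08). Both shares were under the 13.99% and 13.14% of all genes. Imprinted genes, which are expressed from 1 parental allele, gave 6 above and 2 below of 25, against the same 13.99% and 13.14%. DLK1 read 6.54 and 6.55, against 2.17 at most in the others, CDKN1C differed by 3.94 ± 0.18 and MEST by -7.61 ± 0.16.

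Promoter sequence was looked up for 3 genes near the floor in GDM1, chosen after their values were seen because they differ in how they read after the inhibitor. The windows are the 250 bases before the first listed RefSeq start on GRCh38.p14, in gene orientation, with each CG dinucleotide, the site that DNMT1 methylates, in capitals. PRDX2 is on chromosome 19 (chr19:12801801-12802050, minus strand), SAMHD1 on chromosome 20 (chr20:36951709-36951958, minus strand) and MGST1 on chromosome 12 (chr12:16347395-16347644, plus strand).
PRDX2: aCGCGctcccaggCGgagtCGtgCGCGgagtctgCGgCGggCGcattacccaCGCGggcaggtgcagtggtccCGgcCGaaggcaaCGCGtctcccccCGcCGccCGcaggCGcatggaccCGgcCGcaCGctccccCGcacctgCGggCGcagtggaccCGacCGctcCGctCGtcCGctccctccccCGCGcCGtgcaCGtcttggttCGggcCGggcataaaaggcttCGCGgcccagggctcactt
SAMHD1: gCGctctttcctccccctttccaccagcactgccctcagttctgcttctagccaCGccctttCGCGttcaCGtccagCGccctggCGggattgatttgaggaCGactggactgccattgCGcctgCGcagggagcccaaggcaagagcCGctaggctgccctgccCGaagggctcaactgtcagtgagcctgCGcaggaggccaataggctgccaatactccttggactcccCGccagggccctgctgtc
MGST1: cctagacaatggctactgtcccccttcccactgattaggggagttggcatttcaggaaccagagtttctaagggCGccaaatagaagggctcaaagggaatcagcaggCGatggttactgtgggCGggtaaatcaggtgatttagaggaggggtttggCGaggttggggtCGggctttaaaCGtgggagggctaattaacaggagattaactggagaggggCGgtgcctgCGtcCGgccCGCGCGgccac
The PRDX2 window held 38 CG dinucleotides, a number reached by 3.16% of 27305 promoters, the SAMHD1 window 14 (44.7%) and the MGST1 window 12 (48.3%), where the median promoter held 11. Methylation was not measured in these arrays. In GSK3484862 the GDM1 arrays of SAMHD1 read 8.51 and 8.78, those of PRDX2 2.67 and 2.72 and those of MGST1 2.26 in both.

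Genes low in GDM1 were gathered along chromosome 16. Of 522 measured genes there, 156 (29.9%) were below the range, against 13.14% of all genes, and the next chromosomes were 21 (18.9%) and 5 (18.2%). In the gene order of GRCh38.p14 the longest unbroken run outside the range was 20 consecutive measured genes from CES1 to POLR2C, all below, with a median difference of -1.91. Split at CES1, a point taken from these same values, 27 of 319 genes before it (8.46%) and 129 of 203 genes from it to the end (63.5%) were below the range. The median differences were 0.02 and -0.98. By the same rule applied to each other line, between 1 and 6 of the 203 genes lay below all others. These counts were limited in advance, because no other line can be lowest at the 129 genes where GDM1 was. They are therefore only a description. In the GSK3484862 arrays 120 of the 203 (59.1%) were below the range, with a median of -1.11, and 17 of the 20 genes of the run were.

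**Figure D4:**
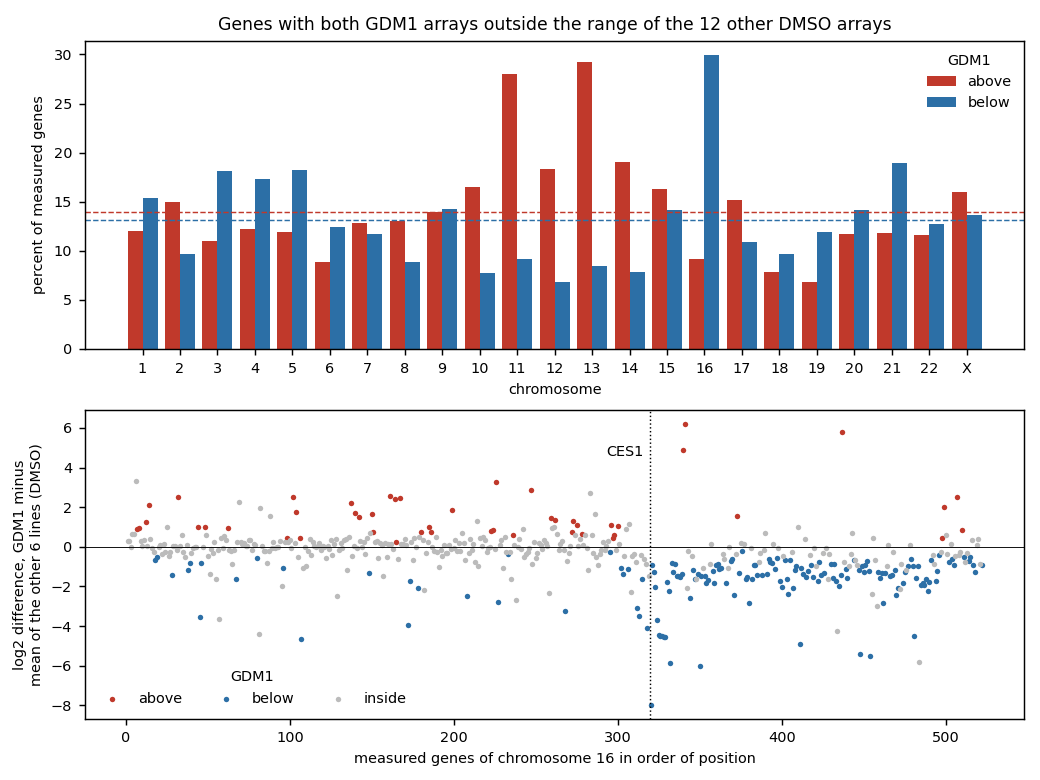
Top, percent of the measured genes of each chromosome with both GDM1 DMSO arrays above (red) or below (blue) the 12 others, with dashed lines at the 13.99% and 13.14% of all genes. Bottom, log2 difference of GDM1 minus the mean of the other 6 lines (y axis) for 522 genes of chromosome 16 in order of position, where the points right of CES1 centre on -0.98 and those left of it on 0.02.

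The run held genes of unrelated function. CES1, a liver and monocyte carboxylesterase, read 4.11 in both GDM1 arrays, against 5.55, 12.94 and 14.90 in the others, and SKNO1 was the next lowest line. NUDT21, a polyadenylation factor, differed by -0.93 ± 0.11, OGFOD1, a ribosomal protein hydroxylase, by -1.27 ± 0.06, the nucleoporin NUP93 by -1.78 ± 0.06 and POLR2C, an RNA polymerase II subunit, by -1.39 ± 0.10. HERPUD1, an endoplasmic reticulum stress gene, was lower by -2.25 ± 0.08. NLRC5, the transactivator of MHC class I, read 3.27 and 2.46, against 5.21, 9.27 and 10.12 (-5.89 ± 0.18). Further along the chromosome lay CBFB, the partner of RUNX1 (-1.07 ± 0.05), and PSMB10, an immunoproteasome subunit (-1.42 ± 0.08). The stretch was not uniformly low. From CES1 to the end 8 of 203 genes lay above the range. Among them were DOK4 (4.90) and ADGRG1 (6.18), which directly follow POLR2C, and ZFHX3 (5.78).

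The metallothionein genes, whose products bind zinc, cadmium and copper, stand next to each other in the run. MT2A read 10.72 and 10.23 in GDM1, against 13.21, 13.97 and 15.82 in the others, a difference of -3.69 ± 0.12 (adjusted p = 2.41e-09). MT1E, MT1F, MT1G, MT1H and MT1X differed by -4.45 ± 0.13, -4.49 ± 0.07, -4.51 ± 0.09, -4.56 ± 0.10 and -4.56 ± 0.15, so these 6 genes lay below the run's median. Their transcripts are near-identical and probe sets may share signal, so the single members are uncertain. None of the 6 passed with lines as units, where MT2A had an adjusted p of 0.134. The 3 promoters found in the RefSeq table are shown, as 250 bases before the start on GRCh38.p14, plus strand. Metal response element matches are in capitals, written TGCACNC or TGCGCNC and searched on both strands. Whether these elements bear on the low levels was not tested. MT2A is at chr16:56608334-56608583, MT1H at chr16:56669564-56669813 and MT1X at chr16:56682220-56682469.
MT2A: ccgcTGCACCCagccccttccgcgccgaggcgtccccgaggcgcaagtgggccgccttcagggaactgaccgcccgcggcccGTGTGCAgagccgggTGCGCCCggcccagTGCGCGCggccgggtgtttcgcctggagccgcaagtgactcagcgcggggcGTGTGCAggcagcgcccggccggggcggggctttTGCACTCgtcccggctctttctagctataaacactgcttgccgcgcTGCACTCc
MT1H: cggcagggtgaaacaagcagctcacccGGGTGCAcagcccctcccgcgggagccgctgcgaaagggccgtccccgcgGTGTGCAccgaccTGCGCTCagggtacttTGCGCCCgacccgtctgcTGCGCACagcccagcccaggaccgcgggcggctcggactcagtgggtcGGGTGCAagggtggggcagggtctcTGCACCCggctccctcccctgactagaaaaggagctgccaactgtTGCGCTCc
MT1X: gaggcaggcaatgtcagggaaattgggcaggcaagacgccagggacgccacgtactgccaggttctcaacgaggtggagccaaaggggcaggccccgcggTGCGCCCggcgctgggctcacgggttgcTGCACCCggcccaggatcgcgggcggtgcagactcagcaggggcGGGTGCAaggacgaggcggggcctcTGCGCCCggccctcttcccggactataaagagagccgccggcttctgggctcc
They held 7, 8 and 4 matches, some of them adjoining CG dinucleotides, and 0.033%, 0.0183% and 0.366% of 27305 promoters held as many. At least 1 match was present in 24.7% of all promoters. A match describes the letters and not the binding of a factor.

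The pattern of untreated GDM1 was then read in the GSK3484862 arrays, which the naming of genes did not use. Of the 1634 genes above the range 1277 (78.2%) were above it there, and of the 1534 below 1238 (80.7%) were below it. These were 73.3% and 65.4% of the genes outside the range in the treated arrays, which numbered 1742 (14.9%) and 1892 (16.2%). Only 3 genes above and 2 below crossed to the opposite side. By limma in the treated arrays 1583 and 1489 were called in the same direction, where 4105 genes (35.2%) were called higher and 5037 (43.1%) lower.

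Some of the genes low in untreated GDM1 read higher after the inhibitor. S100A8 read 9.40 and 11.35 in treated GDM1, against 2.13 in both untreated arrays, a change of 8.24 ± 0.39 (limma adjusted p = 3.64e-10). SAMHD1 changed by 5.79 ± 0.16, MNDA by 5.51 ± 0.27, PRG2 by 5.50 ± 0.43, CXCR4 by 3.38 ± 0.24, NLRC5 by 3.07 ± 0.19, MPO by 2.95 ± 0.26 and CSTA by 2.71 ± 0.40. All 8 rose by the limma test over all 28 arrays, but MPO and CSTA missed the threshold when the 4 GDM1 arrays were fitted alone. ELANE read 2.20 and 2.14 in treated GDM1 and 2.20 in both untreated arrays, and PSAT1 2.42 and 2.80, against 2.80 in both. OAS1, already above the range, rose further by 2.54 ± 0.26, and S100A6 rose by 1.45 ± 0.13 while staying below it. In GDM1 1552 genes (13.3%) rose and 2388 (20.5%) fell with the inhibitor. The change and the baseline difference share the untreated GDM1 arrays, so the values stand side by side without a test of their relation.

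**Figure D5:**
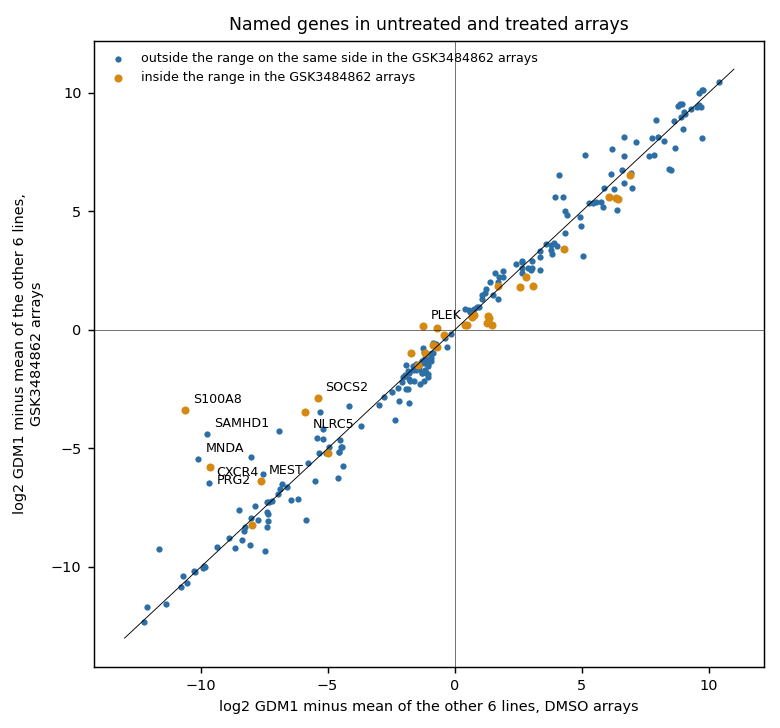
Log2 difference of GDM1 minus the mean of the other 6 lines in the GSK3484862 arrays (y axis) against the DMSO arrays (x axis) for the named genes outside the range, blue where they were on the same side in both and orange where GDM1 was inside the range after treatment. Most points lie near the diagonal, and S100A8 stands at -3.37 in the treated arrays, against -10.60 in the DMSO arrays.

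Of 15 measured common reference genes, 1 was above the range and 3 below, with 4 called higher and 4 lower, so 4 were outside it where 27.1% of all genes were. RNA polymerase II subunit POLR2A differed by 0.60 ± 0.06, B2M, the MHC class I light chain, by -0.39 ± 0.05 on 1 of its 3 probe sets below the range, the lysosomal enzyme GUSB by -1.05 ± 0.11 and the glycolytic enzyme PGK1 by -0.15 ± 0.05, on 2 of its 6 probe sets below the range. The mean level of the list was 13.66 and 13.63 in the GDM1 arrays and 13.54 to 13.85 in the others.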

How the data were processed

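The authors deposited 1 table of log2 probe set signals for 28 arrays, 7 lines in DMSO or GSK3484862 with 2 arrays each. The submitters' processing notes name limma, and how background was corrected and arrays were normalized is not given in the sources used here. Arrays were grouped by their labels. Of 27306 probe sets, 22580 had 1 gene symbol, 1098 several and 3628 none. Probe sets with 1 symbol gave 11676 genes, each read from the probe set that was highest on average across the 28 arrays, and no dim gene was removed.

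Differences came from limma 3.58.1 (R 4.3.3), two-sided, with Benjamini-Hochberg adjustment over all 11676 genes at 0.05, tested on simulated data. The fit of the 14 DMSO arrays had 7 residual degrees of freedom. Named were genes outside the range that were among the 15 largest differences or the 5 widest gaps in each direction. Also named were genes at the floor on 1 side only and the 5 largest outside the range from each of 39 lists. Further genes came from runs of 4 or more neighbouring measured genes and from a set of always-given genes. Which runs and promoters to give was chosen after the values were seen. The members and lists were chosen with earlier results of these data known.

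Alternatives were quantile normalization, median centring, a filter on dim genes, the mean of probe sets, other fits and thresholds, lines as units, a replicate block, wider margins, and leaving out each array or line. Those for the difference between treatments, the lists and chromosome 16 were added after seeing the data. Promoter sequences and gene order come from RefSeq GRCh38.p14.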

Additional observations from a re-analysis of the deposited data

Results flagged for a closer look

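In 15 of the named genes GDM1 lay outside the range in the DMSO arrays, did not lie on that side in the GSK3484862 arrays, and the difference from the other 6 lines itself changed between the treatments (limma over all 28 arrays, adjusted p of 0.0446 at most). By this test 2695 of 11676 genes (23.1%) changed. These genes were chosen for a change of side between the same arrays that the test uses, so its p-values describe them and are no independent evidence. Values are the treated difference minus the DMSO difference on the log2 scale.

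Of these, 8 genes were low in untreated GDM1 and lay closer to the other lines after treatment. S100A8 changed by 7.23 (differences of -3.37 in GSK3484862 and -10.60 in DMSO), PRG2 by 3.84 (-5.80 and -9.64), SOCS2 by 2.53 (-2.87 and -5.40) and NLRC5 by 2.44 (-3.45 and -5.89). PLEK changed by 1.39 (0.15 and -1.24), MEST by 1.22 (-6.39 and -7.61), ZFPM1 by 0.773 (-0.95 and -1.73) and the amino acid transporter gene SLC7A5 by 0.741 (0.06 and -0.68).

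The other 7 were high in untreated GDM1 and less so after treatment. WDR76 changed by -1.25 (0.23 and 1.48), the transcription factor gene GRHL1 by -1.24 (1.85 and 3.09), the mitotic kinase gene AURKB by -0.979 (0.28 and 1.26), its partner INCENP by -0.835 (0.52 and 1.35) and the cohesion factor gene DSCC1 by -0.729 (0.59 and 1.32). PRF1 changed by -0.815 (5.56 and 6.37) and SH2D1A by -0.369 (6.55 and 6.92).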

How the results depend on the processing

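The spread between duplicates sets the error of the comparison, and with lines as units 97 genes were called higher and 123 lower in the DMSO arrays, and 113 and 153 in the GSK3484862 arrays. A limit of 2-fold left 1626 and 1941 genes in the DMSO arrays, 1750 and 2230 in the GSK3484862 arrays, and 374 and 310 for the inhibitor's change in GDM1. For that change the GDM1 arrays alone called 1018 genes higher and 1331 lower, and an adjusted p under 0.01 left 1000 higher. Genes above and below the range numbered 696 and 632 by at least 0.5, and 378 and 383 by at least 1. The cause was not tested.

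With 1 array left out the DMSO comparison called 3424 to 4116 genes higher and 3818 to 4663 lower, the GSK3484862 comparison 3689 to 4152 and 4508 to 5124, and the inhibitor's change 1101 to 1245 and 1653 to 2016. With 1 array less in the range, 1642 to 1840 genes lay above it and 1558 to 1886 below. Quantile normalization gave 1786 genes above the range (1592 shared) and 1331 below (1288 shared), and median centring 1599 (1560 shared) and 1641 (1500 shared).

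Small differences changed sign. DNMT1 came to 0.00499 with quantile normalization and 0.0426 without SHI1, MYB to 0.0223 with the mean of probe sets, and DNMT3A to 0.329 with that mean and 0.0134 without SKNO1. With 1 GDM1 array left out NOM1 ran from -0.0204 to 0.0971, and it came to -0.0236 without SKNO1, -0.171 without NOMO1 and -0.00414 without SHI1. In the GSK3484862 arrays, the mean of probe sets gave PLEK -0.0619 and WDR76 -0.397, with 1 GDM1 array left out WDR76 ran from -0.187 to 0.642 and SLC7A5 from -0.154 to 0.278, and SLC7A5 came to -0.0166 without THP1 and -0.0182 without NOMO1. The change between treatments missed the threshold for PRF1 (-0.197) and SH2D1A with the mean of probe sets, and for ZFPM1 with quantile normalization, median centring and a replicate block. With each of the 4 GDM1 arrays left out in turn, 11 such calls were lost and 49 kept. Lost were those of ZFPM1 with any array, WDR76 with 3, and MEST and GRHL1 with 2 each. Of 203 chromosome 16 genes from CES1 on, 118 to 137 were below the range under the scalings, the mean of probe sets and with 1 array or line left out, and 38 by at least 1.

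Same-numbered arrays of different groups did not deviate together in the 21 pairs compared (r from -0.156 to 0.239). These were not all pairs of the 14 groups, so pairing among the rest was not tested. A replicate block called 3999 genes higher and 4525 lower.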

Other observations

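Leaving aside the mitochondrial genome with 3 of 6, genes above the range were most frequent on chromosomes 13 (66 of 226, 29.2%) and 11 (186 of 664, 28%), against 13.99% of all genes. Chromosome 13 held the run LRCH1, ESD, SUCLA2, MED4, ITM2B and RB1, all above, with a median difference of 0.62, of which 2 of 6 were outside the range again in the GSK3484862 arrays. RB1, the retinoblastoma tumour suppressor, read 13.30 and 13.42 in GDM1, against 12.23 to 13.28 in the others. On chromosome 11, EMSY to MYO7A were 5 consecutive measured genes above the range (median 2.26), and all 5 were outside it again in the treated arrays. On chromosome 14 the 7 genes from RAB15 to PALS1, among them MAX, the partner of MYC, were above with a median of 1.59, and all 7 were again outside.

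Low genes ran together on chromosome 19 from PLPPR3 through AZU1, PRTN3 and ELANE to CFD, 5 granule protease and neighbouring genes with a median of -9.85. On chromosome 7 the run LINC00996, GIMAP8, GIMAP6, GIMAP2 and GIMAP1, the last 4 encoding lymphocyte GTPases, lay above the range with a median of 4.87. In all, 42 runs of at least 4 consecutive measured genes lay on 1 side of the range.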
